A study of Mus musculus with 8 samples.

Results

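The growth hormone (GH), STAT5 and insulin-like growth factor (IGF) axis was taken as 10 genes, found in the count matrix by exact gene symbol among 19348 listed genes: Ghr, Stat5a, Stat5b, Socs2, Cish, Igf1, Igfals, Igfbp1, Igfbp2 and Bcl6. Each symbol occurred once, and all 10 genes passed the filter on low counts in both tissues. RNA-seq had been done on whole liver and on epididymal white adipose tissue (eWAT) of male C57BL/6 mice on a normal diet, aged 12 weeks and fasted for 16 h, with 2 libraries labelled Crtc1-/- (knockout-labelled below) and 2 labelled Crtc1+/+ (wild-type-labelled) for each tissue. Crtc1 encodes a coactivator of the transcription factor CREB. The deletion was made in the whole body with a pair of CRISPR guides around exons 2 to 4, so no tissue kept the intact gene by design, and the mice came from crosses of heterozygotes. The comparison asks how the axis differed between the genotypes in a liver and a fat depot of the same fasting state.

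GH binds its receptor, Ghr, on the cell surface, where the kinase JAK2 phosphorylates STAT5A and STAT5B. These then enter the nucleus and induce Igf1, Igfals, Socs2 and Cish and repress Bcl6. The Socs2 and Cish proteins act back on the receptor and damp it. Liver is the main source of circulating IGF1, which is carried by the acid-labile subunit (Igfals) and by IGF-binding proteins, of which Igfbp1 is known to rise on fasting. In rodent liver, the pulsatile GH of males and the steadier GH of females act through STAT5 to set the sex-biased genes.

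The deposited counts summed to between 16560070 and 19721464 per library. They were estimated counts, of which between 5.44% and 9.98% per library were not whole. Levels are given below as CPM, counts scaled to a common library total with the TMM factors of each tissue, and p-values as edgeR's quasi-likelihood test gave them, adjusted over all genes tested in a tissue. By the study's methods the 2 replicates of a group were independent biological samples, with liver and eWAT taken from 2 mice of each genotype. Whether a replicate number marks the same mouse in both tissues is not stated. Crtc1 itself did not follow the labels. The liver values were 11.7 and 9.86 CPM in the wild-type-labelled libraries and 22.1 and 18.0 CPM in the knockout-labelled ones. The eWAT values were 32.6 and 33.7 CPM against 58.5 and 33.6 CPM. Counts outside the deleted exons would not register the deletion, and genotypes are therefore given as labels.

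The eWAT libraries differed in their cell type markers. The 16 epididymis markers held 7.73% and 9.02% of all counts in wild-type-labelled eWAT (led by Gpx5, Lcn8 and Cst11) and 0.00235% and 0.00122% in knockout-labelled eWAT, where Lcn6, Spink12, Defb15, Defb41 and Ros1 were at 0, and all 16 were called lower. The 14 adipocyte markers (led by Fabp4, Cfd and Cidec) held 0.253% and 0.412% against 4.38% and 2.14%, with 10 called higher. The 14 hepatocyte markers (led by Alb, Apoa1 and Ahsg) held 0.765% and 0.146% in wild-type-labelled eWAT, 0.379% in knockout-labelled replicate 1 and 11.9% in replicate 2, against 22.5% to 25.9% in liver, and none of them was at 0 in any group. None of the 14 was called in edgeR in eWAT, and 1 had an unadjusted p under 0.05. Endothelial markers (8 genes, 7 called higher) held 0.0298% in both wild-type-labelled eWAT libraries and 0.364% and 0.198% in the knockout-labelled ones. Macrophage and Kupffer cell markers (10 genes, 2 called higher) ranged from 0.019% to 0.14% in eWAT, fibroblast and stellate cell markers (8 genes, 2 called higher and 1 lower) from 0.169% to 0.603%, and lymphocyte markers (7 genes, none of the 6 tested called or under an unadjusted p of 0.05) from 0.000386% to 0.00884%, and the groups overlapped for the last 2 lists. Replicate 2 of knockout-labelled eWAT thus stands apart, and the eWAT values of the 10 genes are given with and without it. In bulk tissue, fewer cells of a type and less RNA per cell cannot be told apart, and the part of these markers in the eWAT results was not tested beyond the values given.

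Sequences are shown where they bear on how far the counts can be read. Stat5a (chr11:100859351-100885169, plus strand, GRCm38.p6) and Stat5b (chr11:100780731-100859004, minus strand) lie head to head with 346 bases between them. Their coding sequences matched at 90.7% of 2343 aligned bases in the GENCODE transcripts, with a run of 324 identical bases. Of all stretches of 100 bases in the Stat5a transcript, 6.99% also occurred in Stat5b, so a read from such a stretch cannot be assigned to one gene by its letters. The stretch below, coding bases 835 to 984 of both genes (exon 9 of 20 of Stat5a, chr11:100874924-100875073, and exon 8 of 19 of Stat5b, chr11:100797651-100797800), holds the last 60 bases of that run and the next 90, and capitals mark the 2 bases that differ.
Stat5a: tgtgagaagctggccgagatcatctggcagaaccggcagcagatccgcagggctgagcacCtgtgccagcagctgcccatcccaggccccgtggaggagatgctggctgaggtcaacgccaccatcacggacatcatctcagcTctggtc
Stat5b: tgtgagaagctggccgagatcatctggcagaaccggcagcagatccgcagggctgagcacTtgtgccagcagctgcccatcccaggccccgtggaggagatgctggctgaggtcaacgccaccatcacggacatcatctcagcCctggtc

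STAT5 binds pairs of half-sites written TTCNNNGAA, which reads the same on both strands. In RefSeq promoter windows of GRCm38.p6 (250 bases before to 50 after a start) these letters occurred in 8.30% of 32851 windows. There were 16 windows for 9 of the 10 genes, all except Socs2, and 5 of them, belonging to Cish, Bcl6 and Igfals, held the letters. The second Bcl6 window held 3 matches, as 3 or more did in 0.0335% of all windows, and the Cish window held 2, as 2 or more did in 0.457%. The Igfbp1 window held the core of an insulin response element, CAAAACA, found on either strand in 6.28% of windows. A match is a description of these letters and not a site of binding. The stretches with the matches in capitals follow, for Cish at chr9:107296649-107296678 (plus strand, across the RefSeq start and inside the longer first exon of a GENCODE transcript), for Bcl6 at chr16:23981344-23981463 (minus strand, inside the gene but in no annotated exon), for Igfals at chr17:24878161-24878214 (plus strand, in no annotated exon) and for Igfbp1 at chr11:7197657-7197716 (plus strand, upstream of the gene).
Cish: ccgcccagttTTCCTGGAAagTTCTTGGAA
Bcl6: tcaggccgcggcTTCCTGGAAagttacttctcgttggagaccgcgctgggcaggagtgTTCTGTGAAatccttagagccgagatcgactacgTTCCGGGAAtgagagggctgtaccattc
Igfals: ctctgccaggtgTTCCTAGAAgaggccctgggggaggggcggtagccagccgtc
Igfbp1: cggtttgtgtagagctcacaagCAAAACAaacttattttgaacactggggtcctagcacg

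In liver, none of the 10 genes passed an adjusted p of 0.05 in edgeR, against 0.0854% of all 11707 genes tested. Socs2 and Stat5a had an unadjusted p under 0.05, DESeq2 called Socs2, and limma called none. At the threshold the study used (a log2 fold change beyond 1 in either direction and a raw p under 0.01), Socs2 was higher in the knockout-labelled libraries, a threshold that 2.84% of genes passed in that direction. The groups did not overlap for 4 of the 10 genes (Ghr, Socs2 and Igf1 higher and Stat5a lower in the knockout-labelled libraries), against 52.1% of all genes. In eWAT, Ghr, Stat5b, Cish and Igf1 passed an adjusted p of 0.05, all higher in the knockout-labelled libraries, against 6.65% of 15391 genes. With Igfals they were also the 5 genes past the study's threshold, against 8.37% of genes in that direction. For 6 of the 10 the groups in eWAT did not overlap, against 66.6% of genes. The median log2 fold change of the 10 genes was 0.10 in liver and 2.78 in eWAT, where the medians of all genes were 0.00 and -0.05.

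**Figure D1:**
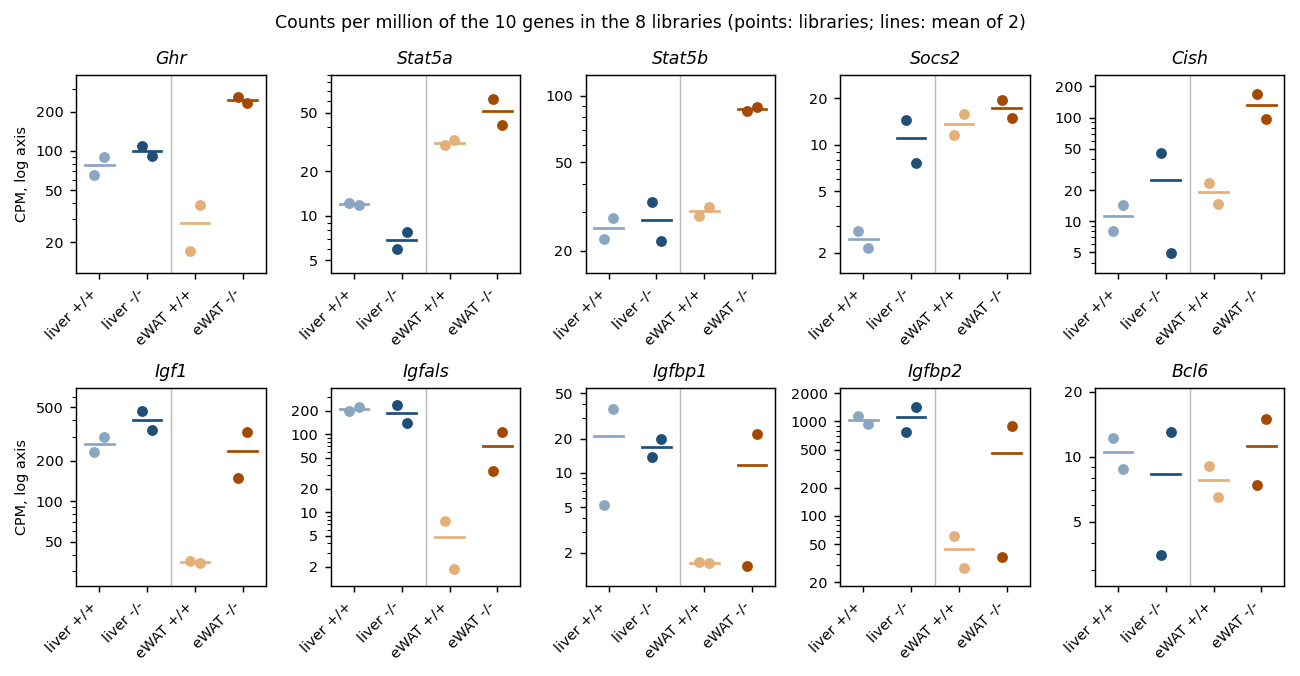
CPM (TMM within tissue, log axis, a scale of its own for each gene) of the 10 genes in the 8 libraries, with points for libraries and lines for the mean of 2. The pairs of eWAT points are far apart from each other by genotype for Ghr, Stat5b, Cish and Igf1, whereas Igfbp1 and Igfbp2 are high in 1 of the 2 knockout-labelled eWAT libraries (21.7 and 887 CPM against 1.54 and 36.8 CPM).

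**Figure D2:**
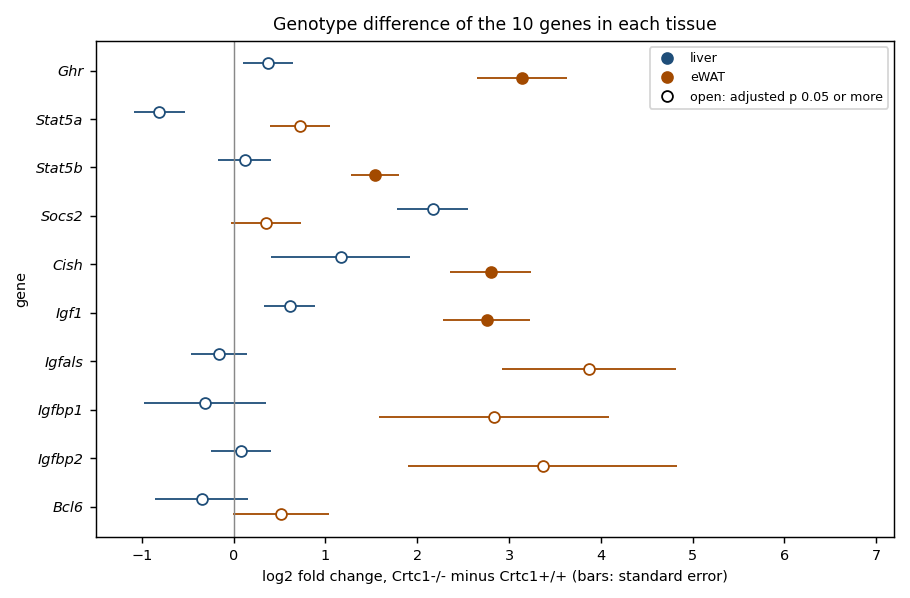
Log2 fold change of each gene (knockout-labelled minus wild-type-labelled libraries, bars for the standard error, filled points for an adjusted p under 0.05) in liver and eWAT. The filled points are the 4 eWAT values of Ghr (3.14), Stat5b (1.54), Cish (2.80) and Igf1 (2.76), and the highest liver value is that of Socs2 (2.17).

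Ghr, the GH receptor (NCBI Gene 14600), was at 65.0 and 90.6 CPM in wild-type-labelled liver and at 110 and 91.2 CPM in knockout-labelled liver. The libraries were ordered by genotype, but the upper library of one group lay within 1 CPM of the lower library of the other, and the log2 fold change of 0.37 (standard error, SE, 0.27) did not pass (adjusted p = 0.494, edgeR). In eWAT, Ghr was at 17.2 and 38.4 CPM in the wild-type-labelled libraries and at 259 and 232 CPM in the knockout-labelled ones. It rose by 3.14 on the log2 scale (SE 0.49, adjusted p = 0.0267, edgeR), and this held without knockout-labelled replicate 2 (3.16, adjusted p = 0.0235) but not without wild-type-labelled replicate 1 or 2 (adjusted p = 0.144 and 0.252). Ghr is expressed in adipocytes as well as hepatocytes. Per 1000 CPM of the summed adipocyte markers, Ghr was at 7.74 and 10.2 CPM in wild-type-labelled eWAT and at 5.81 and 8.87 CPM in knockout-labelled eWAT, so the groups overlapped on that scale. On the same scale Stat5b, 12.8 and 8.40 against 1.92 and 3.40 CPM, and Stat5a, 13.5 and 8.65 against 1.39 and 1.58 CPM, were lower in both knockout-labelled libraries, the opposite direction to that of their CPM. Igf1 was at 16.1 and 9.12 against 3.33 and 12.5 CPM per 1000 CPM of these markers, with overlapping groups. Of the other members on this scale, Socs2 and Bcl6 were lower in both knockout-labelled libraries, Cish was lower by a narrow margin, and Igfals, Igfbp1 and Igfbp2 overlapped.

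Stat5a and Stat5b (NCBI Gene 20850 and 20851) encode the transcription factors that the receptor activates. In liver, Stat5a was at 12.1 and 11.9 CPM in the wild-type-labelled libraries and at 5.97 and 7.70 CPM in the knockout-labelled ones. The groups did not overlap, but the log2 fold change of -0.81 (SE 0.28, unadjusted p = 0.0173) did not pass over all genes (adjusted p = 0.217, edgeR). Stat5b was at 22.7 and 28.2 CPM against 33.1 and 22.1 CPM in liver, with overlapping groups and a log2 fold change of 0.12 (adjusted p = 0.854, edgeR). In eWAT, Stat5b was at 28.6 and 31.6 CPM in the wild-type-labelled libraries and at 85.6 and 89.2 CPM in the knockout-labelled ones, and the groups did not overlap. It rose by 1.54 (SE 0.26, adjusted p = 0.0309, edgeR). Without knockout-labelled replicate 2 the value was 1.47 (adjusted p = 0.0543), and without either wild-type-labelled library it was 1.48 and 1.64 (adjusted p = 0.188 and 0.271), and on library totals it was 1.23 (adjusted p = 0.0714). Stat5a was at 30.1 and 32.6 against 61.9 and 41.3 CPM in eWAT, also without overlap on this scale. Its log2 fold change was 0.72 (adjusted p = 0.195, edgeR), and 0.95 without knockout-labelled replicate 2. On library totals the eWAT groups of Stat5a overlapped (34.1 and 35.6 against 60.8 and 33.8 CPM).

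The counts of this pair are not independent of each other. Both were fractional, their sum was whole to within 1e-06 in all 8 libraries, as when reads shared by a pair of genes are divided between them, and none of the other 8 genes of the axis had a value that was not whole. Stat5a took 34.8% and 29.7% of the sum in wild-type-labelled liver, 15.3% and 25.8% in knockout-labelled liver, 51.3% and 50.7% in wild-type-labelled eWAT, and 42.0% and 31.7% in knockout-labelled eWAT. The share was thus lower in the knockout-labelled libraries in both tissues. Tested as 1 gene, an alternative chosen after seeing the data, the sum had a log2 fold change of -0.12 (SE 0.26) in liver (adjusted p = 0.835, edgeR) and of 1.18 (SE 0.26) in eWAT (adjusted p = 0.052). The Stat5b call in eWAT therefore did not hold for the sum, and how far each gene's own change depends on the division of shared reads was not tested.

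**Figure D3:**
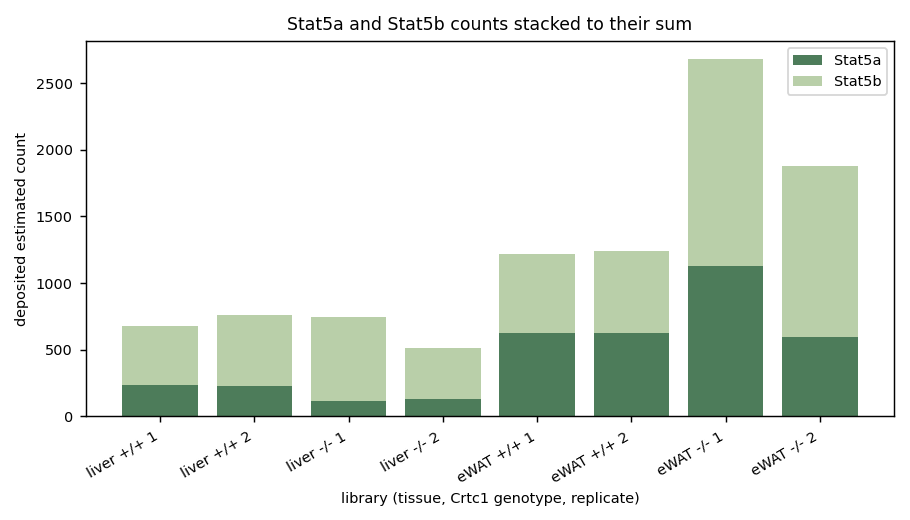
Deposited estimated counts of Stat5a and Stat5b stacked to their sum, in the 8 libraries (linear axis from 0). In liver the 4 sums run from 511 to 763 with the Stat5a segment smaller in the 2 knockout-labelled libraries, and in eWAT the sums of 2683 and 1880 in the knockout-labelled libraries exceed the 1218 and 1238 of the wild-type-labelled ones.

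Socs2 (NCBI Gene 216233), a feedback inhibitor of the receptor, had the largest liver difference among the 10 genes. It was at 2.77 and 2.15 CPM (54 and 41 counts) in wild-type-labelled liver and at 14.5 and 7.65 CPM (277 and 131 counts) in knockout-labelled liver. Both libraries of the latter group were above both of the former, 4.50-fold on average, with a log2 fold change of 2.17 (SE 0.39, unadjusted p = 2.97e-04). After adjustment it missed the threshold (adjusted p = 0.0790, edgeR), and it passed with no expression filter (adjusted p = 0.00256), in DESeq2 (adjusted p = 0.00043), without either knockout-labelled library (1.64 and 2.55, adjusted p = 0.00453 and 0.00301), and not without either wild-type-labelled library (2.35 and 1.99, adjusted p = 0.296 and 0.679). In eWAT, Socs2 was at 11.5 and 15.7 CPM in the wild-type-labelled libraries and at 19.6 and 14.996 CPM in the knockout-labelled ones. The groups overlapped there, with a log2 fold change of 0.35 (SE 0.38, adjusted p = 0.545, edgeR), and of 0.49 without knockout-labelled replicate 2 (adjusted p = 0.552).

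Cish (NCBI Gene 12700), the other feedback inhibitor, varied widely between replicates in liver. Its liver levels were 8.11 and 14.4 CPM in the wild-type-labelled libraries and 45.6 and 4.90 CPM in the knockout-labelled ones (870 and 84 counts). The 2 knockout-labelled libraries lay on either side of the other group, 9.30-fold apart, and only 0.12% of the 11707 genes differed by as much between that pair. The log2 fold change of 1.17 (SE 0.76, adjusted p = 0.438, edgeR) was -1.19 without knockout-labelled replicate 1 (adjusted p = 0.0194) and 2.01 without knockout-labelled replicate 2 (adjusted p = 0.0126), so 1 library set its direction. In eWAT, Cish was at 23.2 and 14.8 CPM in the wild-type-labelled libraries and at 168 and 96.3 CPM in the knockout-labelled ones. It rose there by 2.80 (SE 0.44, adjusted p = 0.0271, edgeR), and by 3.13 without knockout-labelled replicate 2. Cish was not called without either wild-type-labelled library, nor with all 8 libraries in 1 fit. Per 1000 CPM of adipocyte markers it was at 10.4 and 3.93 CPM against 3.77 and 3.67 CPM. GENCODE also annotates the antisense gene Gm17041 and the pseudogene Gm17040 within Cish, and whether the counting used strand is not given in the sources used here.

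Igf1 (NCBI Gene 16000) encodes the hormone that carries much of the action of GH. Its levels in liver were 233 and 299 CPM in the wild-type-labelled libraries and 472 and 340 CPM in the knockout-labelled ones. Both libraries of the latter group were higher, 1.53-fold on average, and the log2 fold change of 0.61 (SE 0.28, unadjusted p = 0.0552) did not pass (adjusted p = 0.298, edgeR). In eWAT it was at 35.9 and 34.3 CPM against 148 and 327 CPM. It rose by 2.76 (SE 0.47, adjusted p = 0.0309, edgeR), and by 2.05 without knockout-labelled replicate 2 (adjusted p = 0.016), and the call was lost without either wild-type-labelled library (adjusted p = 0.202 and 0.279). The higher of the knockout-labelled eWAT libraries was the one with the hepatocyte markers. In it Igf1 stood at 64.7% of its liver level of the same genotype on the scale of library totals, where the summed hepatocyte markers stood at 49.2%, and in replicate 1 Igf1 stood at 35.4% where the markers stood at 1.57%. The antisense gene Igf1os overlaps Igf1.

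Igfals (NCBI Gene 16005), which holds IGF1 in its circulating complex, was at 198 and 222 CPM in wild-type-labelled liver and at 238 and 138 CPM in knockout-labelled liver. The groups overlapped, with a log2 fold change of -0.16 (adjusted p = 0.812, edgeR). In eWAT it was at 7.75 and 1.87 CPM (161 and 36 counts) against 33.9 and 107 CPM. These did not overlap, and the log2 fold change of 3.87 (SE 0.95, unadjusted p = 0.00967) missed the adjusted threshold (adjusted p = 0.0618, edgeR), with 2.82 (adjusted p = 0.0868) without knockout-labelled replicate 2. It passed in 4 other settings, DESeq2 (3.90, adjusted p = 9.42e-05), limma at pseudocount 1 (3.32, adjusted p = 0.0481), all 8 libraries in 1 fit (3.82, adjusted p = 0.0228) and without knockout-labelled replicate 1 (4.48, adjusted p = 0.0149). Relative to liver of the same genotype, Igfals stood at 17.5% and 45.9% in the 2 knockout-labelled eWAT libraries, beside 1.57% and 49.2% for the hepatocyte markers.

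In eWAT both binding proteins were high in the 1 library in which the hepatocyte markers were high. Igfbp1 (NCBI Gene 16006), a short-lived liver product under insulin control, was at 1.64 and 1.61 CPM in wild-type-labelled eWAT and at 1.54 and 21.7 CPM in knockout-labelled eWAT. Igfbp2 (NCBI Gene 16008), an abundant liver binding protein, was at 61.2 and 28.4 CPM against 36.8 and 887 CPM. In knockout-labelled replicate 1 both sat within or below the range of the other genotype. Their log2 fold changes of 2.83 and 3.37 (SE 1.26 and 1.46, adjusted p = 0.188 and 0.182, edgeR) became -0.11 and -0.29 without knockout-labelled replicate 2 (adjusted p = 0.952 and 0.728) and were 3.75 and 4.32 without knockout-labelled replicate 1 (adjusted p = 0.0098 and 0.00617).

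**Figure D4:**
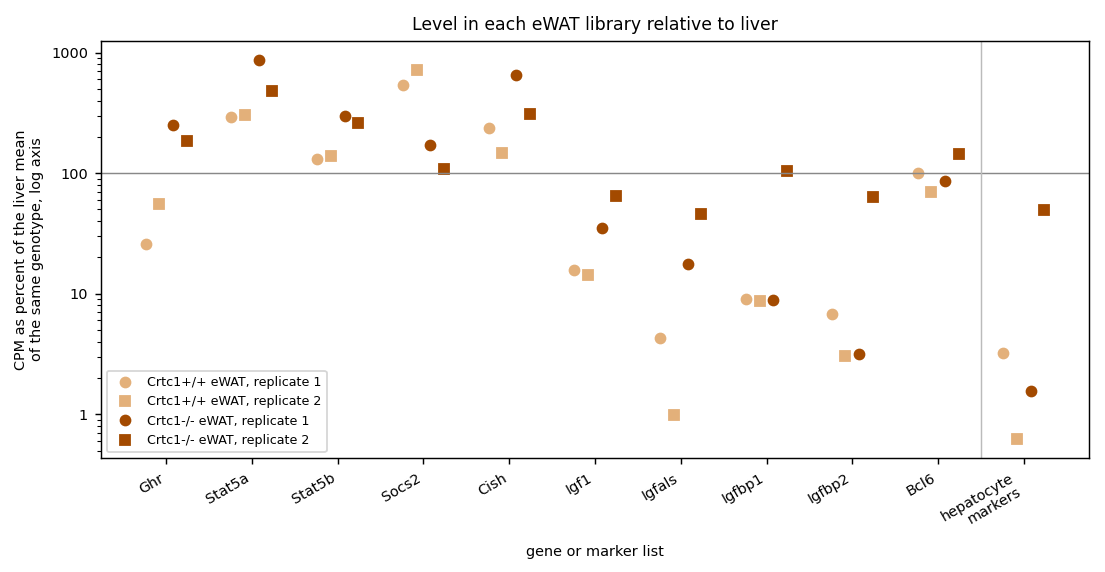
Level of each gene in each eWAT library as a percent of the liver mean of the same genotype (CPM on library totals, log axis, the line at 100 marks equal levels), with the 14 hepatocyte markers summed at the right. In knockout-labelled replicate 2 the markers, Igfals and Igfbp2 sit at 49.2%, 45.9% and 63.9%, and in replicate 1 at 1.57%, 17.5% and 3.19%. On this scale Stat5a, Stat5b, Socs2 and Cish lie above 100% in all 4 libraries. With TMM over all 8 libraries, wild-type-labelled Stat5b is lower in eWAT than in liver (19.3 and 20.8 against 35.0 and 43.7 CPM). Knockout-labelled Socs2 is lower too (11.5 and 10.1 against 22.5 and 11.7 CPM). Wild-type-labelled Cish overlaps liver there, and Stat5a stays higher in both genotypes.

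In liver the binding proteins varied within groups. Igfbp1 was at 5.24 and 36.5 CPM (102 and 696 counts) in the wild-type-labelled libraries and at 13.7 and 19.9 CPM in the knockout-labelled ones. The 2 wild-type-labelled libraries enclosed the other group, and 0.35% of genes differed by as much between them. Its log2 fold change of -0.31 (SE 0.66, adjusted p = 0.832, edgeR) was -1.13 without wild-type-labelled replicate 1 and 1.67 without wild-type-labelled replicate 2. Igfbp2 was at 1156 and 941 CPM against 781 and 1435 CPM, with a log2 fold change of 0.08 (SE 0.32, adjusted p = 0.919, edgeR). All libraries carry the same fasting label.

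Bcl6 (NCBI Gene 12053), a repressor that STAT5 lowers and that opposes it at shared targets, was at 12.2 and 8.82 CPM in wild-type-labelled liver and at 3.51 and 13.1 CPM (67 and 224 counts) in knockout-labelled liver. The knockout-labelled pair lay on either side of the other group, and 0.871% of genes differed by as much between those 2 libraries. In that pair, the library with the lower Bcl6 was replicate 1, the library in which Cish and Socs2 were higher. The same held in knockout-labelled eWAT. In wild-type-labelled liver the library with the lower Bcl6 had the higher Cish but the lower Socs2. In wild-type-labelled eWAT it had the lower Cish and the higher Socs2. Whether Bcl6 followed either gene was not tested. The liver log2 fold change of Bcl6, -0.35 (SE 0.51, adjusted p = 0.751, edgeR), was 0.33 without knockout-labelled replicate 1 and -1.59 without replicate 2. In eWAT, Bcl6 was at 9.06 and 6.53 CPM against 7.42 and 14.9 CPM, with a log2 fold change of 0.52 (adjusted p = 0.51, edgeR) and of -0.09 without knockout-labelled replicate 2. The protein-coding gene Gm37419 on the other strand overlaps it.

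Levels of different genes were compared per length, as the deposited FPKM. In wild-type-labelled liver the order was Igfbp2 (1013 ± 143 FPKM, SD, n = 2), Igfals (105 ± 7.68), Ghr (51.3 ± 11.9) and Igf1 (38.0 ± 6.29), and no neighbours among these overlapped. Below them, Igfbp1, Stat5b, Cish, Stat5a and Bcl6 followed from 14.9 to 3.12 FPKM with each neighbour overlapping the next, and Socs2 was lowest at 1.12 ± 0.276 FPKM. In knockout-labelled liver the first 4 kept their order, but Igfals, Ghr and Igf1 now overlapped, and Socs2 stood at 5.45 ± 2.31 FPKM, overlapping Stat5b and Bcl6. In wild-type-labelled eWAT Igfbp2 was highest (51.8 ± 28.8 FPKM) and Igfbp1 lowest (1.32 ± 0.0424). The receptor (15.8 ± 5.07 FPKM), Stat5a (9.66 ± 0.269), Socs2 (7.14 ± 1.43) and Stat5b (7.11 ± 0.226) stood above Igf1 (5.66 ± 0.332). Cish (7.42 ± 2.52 FPKM) overlapped Igf1, with its lower library at 5.63 FPKM and the higher Igf1 library at 5.89 FPKM. By group in FPKM, Ghr was highest in knockout-labelled eWAT (140 ± 32.8 FPKM) and lowest in wild-type-labelled eWAT, and the 2 liver groups between them overlapped. With TMM over all 8 libraries, Ghr in knockout-labelled eWAT (151.7 and 156.6 CPM) overlapped knockout-labelled liver (170.7 and 139.6 CPM). Igf1 was highest in knockout-labelled liver (60.1 ± 12.5 FPKM), and wild-type-labelled liver overlapped with knockout-labelled eWAT (29.9 ± 12.5).

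Between the tissues of the wild-type-labelled libraries, 6 of the 10 genes were called lower in eWAT than in liver, against 19.8% of 15587 genes. Higher in eWAT was 1 of the 10, against 35.0%. This test used 1 scaling over all 8 libraries. These eWAT libraries held 7.73% and 9.02% of counts in epididymis markers and 0.253% and 0.412% in adipocyte markers. How far the differences hold for fat itself was therefore not tested. The log2 difference of eWAT minus liver was -6.65 for Igfals (adjusted p = 0.00259, edgeR), -5.76 for Igfbp2 (adjusted p = 0.0167), -4.90 for Igfbp1 (adjusted p = 0.024), -4.14 for Igf1 (adjusted p = 0.00172), -2.71 for Ghr (adjusted p = 0.00311) and -0.97 for Stat5b (adjusted p = 0.0208). Socs2 was the gene called higher, by 1.25 (SE 0.38, adjusted p = 0.0296, edgeR). Socs2 stood at 4.28 and 3.34 CPM in liver and 7.79 and 10.3 CPM in eWAT on that scale, and it was not called in DESeq2 (1.10, adjusted p = 0.0647), nor without either wild-type-labelled liver library (adjusted p = 0.0863 and 0.147) nor without wild-type-labelled eWAT replicate 2 (adjusted p = 0.121). Stat5a (0.17), Cish (-0.46) and Bcl6 (-1.64) were not called (adjusted p = 0.547, 0.67 and 0.0684, edgeR). Bcl6 was called lower in 8 of 15 alternative settings (among them DESeq2, -1.78, adjusted p = 0.0280, and limma at pseudocount 1, -1.69, adjusted p = 0.0305), and not without any one of the 4 wild-type-labelled libraries (adjusted p between 0.122 and 0.227) nor with no expression filter (adjusted p = 0.0654), the replicate block (adjusted p = 0.168) or library totals (-0.24, adjusted p = 0.729). Scaling to library totals, which moved the median of all genes from 0.61 to 2.003, turned Stat5b to 0.43 and Cish to 0.95. The direction of those 2 therefore depends on the scaling. Whether Stat5a is called depends on it too, with 1.57 on library totals (adjusted p = 0.00457, edgeR). Calls were lost for Igfbp1 without wild-type-labelled liver replicate 2 or either eWAT replicate (adjusted p = 0.128, 0.0993 and 0.105), for Igfbp2 without liver replicate 1 or either eWAT replicate (adjusted p = 0.0538, 0.0617 and 0.0912) and for Stat5b without any one of the 4 (adjusted p between 0.0566 and 0.12), while Ghr, Igf1 and Igfals kept theirs in every left-out fit.

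Whether the genotype difference itself differed between the tissues was tested as an interaction. It was called for 2 of the 10 genes, against 6.94% of 15587 genes. For Ghr the difference was 2.70 larger in eWAT than in liver (SE 0.58, adjusted p = 0.0413, edgeR), and for Stat5a it was 1.44 larger (SE 0.33, adjusted p = 0.0478), from a lower value in liver and a higher one in eWAT. Both were near the threshold, and for Ghr the call held without either knockout-labelled eWAT library (adjusted p = 0.0206 and 0.0262) and was lost without any one of the other 6 libraries (adjusted p between 0.0572 and 0.15). The Stat5a call held without knockout-labelled eWAT replicate 2 (1.77, adjusted p = 0.0285) and was lost without any one of the other 7 libraries (adjusted p between 0.0734 and 0.16). With same-numbered liver and eWAT libraries treated as 1 mouse, a block chosen after seeing the data, the Ghr call held (2.79, adjusted p = 0.0406) and the Stat5a call did not (1.43, adjusted p = 0.0717). With Stat5a and Stat5b added together the interaction was 1.21 (adjusted p = 0.0744, edgeR). Socs2 was the gene of the 10 with a negative interaction, -1.91 (SE 0.53, unadjusted p = 0.00846), which missed the adjusted threshold (adjusted p = 0.0756, edgeR). Stat5b, Igf1 and Igfals were at 1.34, 2.11 and 3.99 (adjusted p = 0.0768, 0.112 and 0.0828), and Cish, Igfbp1, Igfbp2 and Bcl6 had adjusted p of 0.267 or more.

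The other genes of the pathway, a list of 33 that holds receptors, kinases, phosphatases, adaptors, IGFs and further binding proteins, were measured beside them. In liver, 30 were tested and, with all liver libraries kept, none was called in edgeR, DESeq2 or limma. At an unadjusted p under 0.05 in edgeR 6 were higher and 1 lower, with a median log2 fold change of 0.23. Lowest in p were Igf2, a fetal growth factor (2.05, adjusted p = 0.188, edgeR), Igfbp7 (1.02), Socs7 (0.72) and Igf1r, the IGF1 receptor (1.44). Igf2r, which clears IGF2 (-0.62), and Prlr, the prolactin receptor (0.56), followed. The adjusted p of the 5 after Igf2 lay between 0.198 and 0.277. Igf2 rested on 5 and 6 counts against 13 and 30, and Igf1r on 29 and 10 against 32 and 66. Without knockout-labelled liver replicate 1, Igf2, Igfbp7 and Igf1r were at 2.60, 1.41 and 1.94. Without replicate 2 of that group they were at 1.23, 0.48 and 0.72. The kinase Jak2 (0.79) and the insulin receptor Insr (0.64) had adjusted p of 0.39 and 0.277. In eWAT, 4 of the 32 tested were called higher and 1 lower, where 6.65% of all genes were called higher and 5.54% lower, and the median was 0.56. Igf1r fell by 2.24 (SE 0.33, adjusted p = 0.0258, edgeR), from a mean of 117 to 24.6 CPM. Grb10, an adaptor that restrains insulin and IGF1 receptors, rose by 2.11 (adjusted p = 0.0215), Igf2r by 1.39 (adjusted p = 0.0373), Socs3, a cytokine-induced feedback inhibitor, by 2.23 (adjusted p = 0.0447) and the binding protein Igfbp4 by 2.92 (adjusted p = 0.0499). Irs1, a docking protein of both receptors, was at 1.46 (adjusted p = 0.059), Igf2 at 1.35 (adjusted p = 0.0646), Jak2 at -0.99 (adjusted p = 0.165), Prlr at 1.49 (adjusted p = 0.344, and -0.99 without knockout-labelled replicate 2) and Insr at 0.07 (adjusted p = 0.921). Without knockout-labelled replicate 2 the calls of Igf1r (-2.17, adjusted p = 0.040), Grb10 (2.003, adjusted p = 0.029), Socs3 (2.48, adjusted p = 0.0393) and Igfbp4 (2.16, adjusted p = 0.0279) held and that of Igf2r did not (1.26, adjusted p = 0.0699), and Irs1 was at 1.62 (adjusted p = 0.0689). Without knockout-labelled replicate 1 the Socs3 call was lost (1.92, adjusted p = 0.0631), and on library totals those of Igf2r, Socs3 and Igfbp4 were (adjusted p = 0.0904, 0.0731 and 0.0539), which left 1 of the 4 higher calls. None of the 5 calls held without either wild-type-labelled eWAT library (adjusted p between 0.143 and 0.337).

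Downstream readouts of GH in liver were read from lists of sex-biased genes, chosen with the results of these libraries known and so no independent evidence of their direction. Of the male-biased genes 25 of 26 were tested, 2 were called lower and 11 were lower at the study's threshold, which 1.43% of all genes passed in that direction, with a median log2 fold change of -1.28. Elovl3, a fatty acid elongase, was at -4.21 (adjusted p = 0.0418, edgeR) and Mup7, a urinary pheromone carrier, at -5.80 (adjusted p = 0.0493), while Serpina1e (-2.86), Mup1 (-3.51), Gstp1 (-1.56) and Cyp2d9 (-1.52) had adjusted p between 0.0668 and 0.083. Over all genes, 2.84% were higher at the study's threshold and 0.0854% were called in either direction. Of 33 female-biased genes 28 were tested, 3 were called higher and 13 were higher at the study's threshold, with a median of 1.28. These 3 were Cyp2b13 (5.30, adjusted p = 0.0332, edgeR), Cyp3a41a (6.36, adjusted p = 0.0418) and Sult2a2 (7.82, adjusted p = 0.0418), and Sult3a1 and Sult2a1 (4.55 and 9.57) had adjusted p of 0.0524 and 0.0617. Without wild-type-labelled liver replicate 2 the calls of Elovl3 (adjusted p = 0.407), Mup7 (0.0799), Cyp2b13 (0.237) and Sult2a2 (0.237) were lost, and without replicate 1 that of Elovl3 (0.0604). The counts depended strongly on the library left out, in these lists and over all genes. They were highest without knockout-labelled liver replicate 1 and lowest without wild-type-labelled replicate 2. With each liver library left out, Elovl3 ranged from -5.92 to -3.49 and Mup7 from -6.60 to -3.99. Cyp2b13 ranged from 4.62 to 6.61, Cyp3a41a from 5.35 to 12.6 and Sult2a2 from 6.83 to 14.6. DESeq2 called 10 of the male-biased genes lower and 8 of the female-biased genes higher, but neither Cyp3a41a nor Sult2a2 (adjusted p = 0.137 and 0.0734), and limma called none. Counts of Mup7, Mup1, Cyp2d9, Cyp2b13, Sult2a1 and Sult2a2 were not whole in at least 1 library, as when near copies share reads. Those of Cyp3a41a and Sult3a1 were whole in all 8 libraries. Shared reads were not measured in the Mup, Cyp2, Cyp3a and Sult families, so single members are uncertain. In eWAT the same lists had 2 called higher and 1 lower of 19 male-biased genes tested, and 1 of each of 23 female-biased genes, where 6.65% of all genes were called higher and 5.54% lower. These eWAT counts also depended on the library left out, in the lists and over all genes. More were called higher without knockout-labelled eWAT replicate 1, which leaves in that group the library with 11.9% hepatocyte markers. The calls were lost without either wild-type-labelled library.

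**Figure D5:**
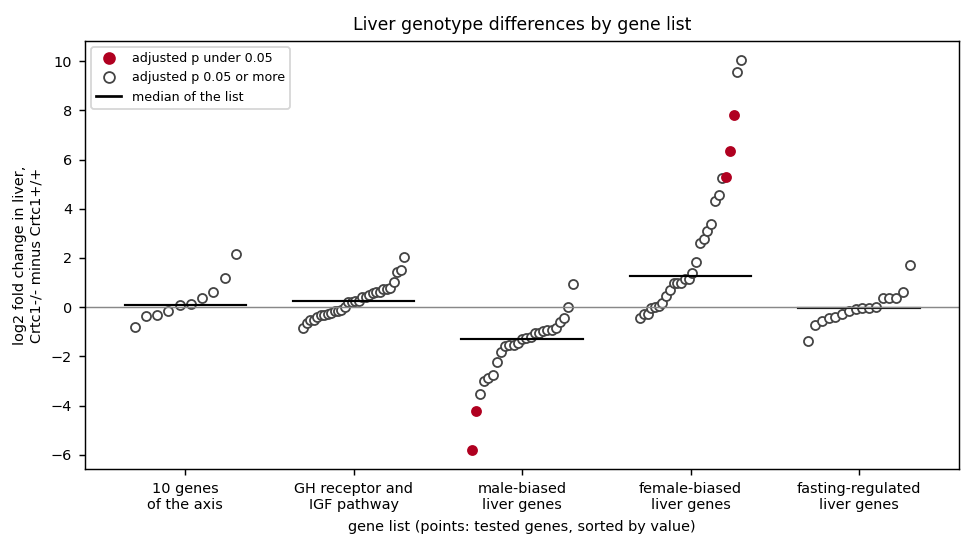
Log2 fold change in liver (knockout-labelled minus wild-type-labelled libraries) of the tested genes of 5 lists, sorted within each list, with filled points for an adjusted p under 0.05 and a line at the median. The 10 genes of the axis centre on 0.10 and the wider pathway on 0.23, while the male-biased genes centre on -1.28 and the female-biased genes on 1.28.

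Of 16 genes that fasting regulates in liver, all were tested. With all liver libraries kept, none was called in liver in edgeR, DESeq2 or limma, with 1 at an unadjusted p under 0.05 and a median of -0.05. That gene was the fasting hormone Fgf21 (1.70, adjusted p = 0.262, edgeR). It was at 19.3 and 3.97 CPM in knockout-labelled liver. Its value was 0.16 without replicate 1 of that group and 2.42 without replicate 2, so it rested mainly on 1 library. G6pc, which releases glucose (-1.37, and 0.26 without wild-type-labelled liver replicate 2), Foxo1, a regulator that insulin switches off (0.63), Tat (-0.74), Cpt1a, which admits fatty acids to mitochondria (-0.58), and Creb3l3 (-0.45) had adjusted p between 0.297 and 0.451. Without knockout-labelled liver replicate 1, Cpt1a was at -1.19 and Creb3l3 at -0.84. Without replicate 2 of that group they were at -0.15 and -0.14. In eWAT 5 of the 16 were called higher, against 6.65% of all genes. More of the 16 and of all genes were called higher without knockout-labelled replicate 1. Without either wild-type-labelled library the calls were lost. In liver the epididymis markers (3 tested, none called in edgeR and all 3 at an unadjusted p under 0.05) held 0.000179% to 0.000213% of counts in the wild-type-labelled libraries and 0.00114% to 0.00808% in the knockout-labelled ones, and the hepatocyte markers 22.5% to 25.9% over all 4. Endothelial markers held 0.00531% to 0.00597% against 0.00824% to 0.00857%, and fibroblast and stellate cell markers 0.00786% to 0.0101% against 0.0135% to 0.027%. Adipocyte markers (9 tested, 1 called higher in edgeR) overlapped, with 0.00553% to 0.0101% against 0.00937% to 0.0106%. Lymphocyte markers (3 tested, none called, 2 higher at an unadjusted p under 0.05) held 0.000153% to 0.000254% against 0.000411% to 0.000757%. The part of these markers in the liver values was not tested.

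Across all 8 libraries, the genes most alike to 3 members were found by the root mean square difference of centred log2 CPM over 12332 genes with a mean of at least 1. For Igf1 they were Isoc2a (0.223), Fmo1 (0.255) and Colec11 (0.271), where the median gene was at 1.998. For Socs2 the distances were larger, 0.446 for Cybb, 0.449 for Crtc1 itself and 0.456 for Nfib, with a median gene at 1.05. For Bcl6 they were Hsf2 (0.309), Ccdc84 (0.312) and Fancf (0.333), with a median of 1.07. These distances describe 8 libraries that share tissue and genotype, and carry no test.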

How the data were processed

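RNA-seq of 8 libraries (2 per tissue and genotype label) was used. The authors deposited raw estimated counts per gene and FPKM, which divide fragments by transcript length and by the library total. The submitters' processing notes name HISAT, Bowtie2 and GRCm38.p6, and the counting tool and strand setting are not given in the sources used here. Counts were rounded, filtered by filterByExpr, scaled by TMM and tested by edgeR's quasi-likelihood test (edgeR 4.0.16, R 4.3.3) within each tissue, with Benjamini-Hochberg adjustment. Interaction and tissue contrasts used all 8 libraries in 1 fit. The study normalized and tested with limma, run here as an alternative on log2(FPKM + 1) and log2(FPKM + 0.1) (limma 3.58.1). Fold changes of those fits are on the log2(FPKM + pseudocount) scale. Other alternatives were DESeq2 1.42.0, no filter, library-size scaling, a replicate block, each library left out and, chosen after seeing the data, a block by mouse and the sum of Stat5a and Stat5b.

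At these depths 3 counts correspond to 0.152 to 0.181 CPM, and the spread between 2 libraries limits most comparisons. Counting error is not small for Igfbp1 in eWAT (34, 31 and 28 counts in 3 of the 4 libraries), nor where Igfals and Socs2 had 36 and 41 counts. Nor is it small in liver for Igf2 (5 to 30 counts) and Igf1r (10 to 66 counts). The 10 genes, the lists and the marker lists were chosen with earlier results of these data known, and the sex-biased lists had been chosen in that earlier work after seeing the data. Named genes were the 10 members, Crtc1, Igf1r, Insr, Igf2, Igf2r, Prlr and Jak2, the 6 genes of lowest p in each pathway list, the 3 highest genes of each marker list and the 3 genes most alike to Igf1, Socs2 and Bcl6. Positions and promoter windows are from RefSeq (GRCm38.p6), and transcripts and exons from the GENCODE annotation of GRCm38, compared with Biopython 1.88. The tests were tried on simulated data first. Figures were drawn with matplotlib 3.10.9.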

Additional observations from a re-analysis of the deposited data

Results flagged for a closer look

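The genotype difference of 2 genes of the axis differed between the tissues by the interaction test. Ghr had a log2 fold change 2.70 larger in eWAT than in liver (standard error 0.58, adjusted p = 0.0413, edgeR's quasi-likelihood test). In CPM scaled within each tissue, all 4 knockout-labelled libraries were above the wild-type-labelled ones of their tissue. With TMM over all 8 libraries, the scaling of this test, the liver groups overlapped. They were at 100.3 and 140.6 CPM (wild-type-labelled) and at 170.7 and 139.6 CPM (knockout-labelled). For Stat5a the log2 fold change was 1.44 larger in eWAT (standard error 0.33, adjusted p = 0.0478). In CPM scaled within each tissue, both knockout-labelled libraries were lower in liver and both higher in eWAT. On library totals, knockout-labelled eWAT replicate 2 (33.8 CPM) was below both wild-type-labelled eWAT libraries (34.1 and 35.6 CPM). The Ghr interaction was 2.42 (adjusted p = 0.0623) on library totals and 2.82 (adjusted p = 0.00041) in DESeq2, and the Stat5a interaction was 1.19 (adjusted p = 0.162) and 1.56 (adjusted p = 0.0371). With only 2 libraries per group, single groups were not searched for outlying samples.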

How the results depend on the processing

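In liver, 10 genes were called in the edgeR fit, against 298 in DESeq2, 301 with no expression filter, 82 with the replicate number as a block, 0 with limma under either pseudocount (where DESeq2 and edgeR gave the counts above and 2029 genes had an unadjusted p under 0.05 in edgeR), 0 with all 8 libraries in 1 fit and 1 to 1507 with a library left out. At the study's threshold 500 genes passed, against 158 (limma, pseudocount 1), 245 (8 libraries in 1 fit) and 159 to 1306. In eWAT, 1875 were called, against 4620 in DESeq2, 0 with the block (5130 had an unadjusted p under 0.05 without it), 3861 in 1 fit of 8 libraries and 0 to 3073 with a library left out, with 0 without either wild-type-labelled library. At the study's threshold it was 2448, against 4039 in DESeq2 and 633 to 3132. For the interaction it was 1081, against 1974 in DESeq2, 705 on library totals, 466 with the block, 2533 and 2390 with limma (pseudocounts 1 and 0.1) and 0 to 2261. Between tissues it was 8552, against 11826 on library totals and 4285 to 8872 in the other settings. Library totals moved the higher against lower calls from 1023 and 852 to 587 and 1075 in eWAT (median of all genes from -0.05 to -0.35), from 589 and 492 to 262 and 443 for the interaction and from 5461 and 3091 to 10702 and 1124 between tissues, where limma at pseudocount 1 called 3072 higher of 6751.

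Same-numbered libraries deviated together with correlations of 0.065 (liver), -0.064 (eWAT), 0.243 (tissues, wild-type-labelled) and 0.007 (tissues, knockout-labelled), so the number was not taken to pair samples. With the block, Socs2 in liver was called (2.12, adjusted p = 0.0232) and no eWAT gene was, and Igfbp1 in liver turned to 0.21.

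Leaving out each library in turn gave signs on both sides of 0 in liver for Igfbp1 (-1.13 to 1.67), Igfbp2 (-0.43 to 0.46), Stat5b (-0.19 to 0.37), Cish (-1.19 to 2.01), Bcl6 (-1.59 to 0.33), Igfals (-0.60 to 0.17) and G6pc (-2.13 to 0.26), in eWAT for Igfbp1 (-0.11 to 3.75), Igfbp2 (-0.29 to 4.32), Bcl6 (-0.092 to 0.95), Insr (-0.45 to 0.60) and Prlr (-0.99 to 2.36), for the Igfbp2 interaction (-0.41 to 4.26), and between tissues for Stat5a (-0.0066 to 0.21) and Cish (-0.84 to 0.012). Other settings turned Igfbp1 (0.21 and 0.28 with limma) and Igfbp2 (-0.050 with limma under both pseudocounts) in liver, Stat5b in liver (-0.12) and Stat5a between tissues (-0.50) when the 2 were summed, Insr in eWAT (-0.26) and, between tissues, Stat5b (0.43) and Cish (0.95) on library totals, and Stat5a (-0.13 and -0.15) and Crtc1 (-0.19 and -0.25) with limma. The cause was not tested. Of 112 alternative values of the 10 genes in liver and 112 in eWAT, 92 and 86 kept direction and side of the threshold.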

Other observations

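CREB, the factor that Crtc1 coactivates, binds TGACG, and the letters were counted on both strands in the RefSeq promoter windows of GRCm38.p6. They occurred in 20.8% of 32851 windows. Among the 10 genes the second Stat5a window held 3 matches, as 1.03% of windows held 3 or more, the first Bcl6 window held 2, and 1 Cish window and 2 Igfals windows held 1 each. No window of the 10 genes held the full palindrome TGACGTCA, which 1.79% of all windows held.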
